A study of Mus musculus with 8 samples.

Results

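Collagen chain genes, the genes whose products assemble in threes into the collagens of the extracellular matrix, were followed in immortalised mouse skin fibroblasts kept in low or high oxygen. The 43 members are all features of the deposited table named Col, a number, a and a number, out of 17091 features, and they cover 26 collagen types. By family they comprise 11 fibrillar chains (types I, II, III, V, XI, XXIV and XXVII), 6 chains of type IV, 6 of type VI, 9 FACIT chains (fibril-associated collagens, types IX, XII, XIV, XVI, XIX, XX and XXII), 3 of types VIII and X, 1 of type VII, 2 of types XV and XVIII, 4 transmembrane chains (types XIII, XVII, XXIII and XXV) and 1 of type XXVIII. The cells came from mir210lox/lox mice on a C57BL/6 background, in libraries the submitters call KO, or from WT C57BL/6 mice. They were kept for 24 hours at 1% oxygen (hypoxia) or 21% oxygen (normoxia), with 2 libraries in each of 4 groups. A lox site marks DNA that Cre recombinase can remove, the labels name no Cre, and KO is used here as the submitters' name for the group. The number of cell lines behind each genotype is not given in the labels, so genotype and cell line cannot be told apart. Whether the libraries of a group stem from independent cultures is not stated either, and the p-values therefore rest on library-to-library spread that may be technical.

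A collagen molecule is a triple helix of 3 chains, which may be alike or different. Fibrillar collagens form the cross-striated fibres that give skin and tendon their strength, type IV forms the sheet-like network of basement membranes, type VI forms beaded filaments close to the cell, and FACIT chains decorate the surface of fibrils. Types II, IX, X and XI are best known from cartilage. Hypoxia is known to induce, through the transcription factor HIF, the enzymes that hydroxylate proline and lysine in new collagen chains, and the microRNA miR-210 is itself a HIF target.

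All values are the authors' normalised reads, whole numbers with a lowest value of 1, which is taken here as the floor. The spacing of the low values gave an estimated 6.26 M to 11.8 M assigned reads per library, and a value of 10 then rests on about 7.2 to 14.8 reads. The targeted gene, Mir210, was at the floor of 1 in all 8 libraries, so it does not check the genotype labels. Of 12 fibroblast markers 12 were in the table, with summed values of 74807 to 104447 per library. Vim, Thy1, Pdgfra and Pdgfrb were high in all 8 libraries, while Lum and Fap were under 10 in all 4 KO libraries and in the WT libraries numbered 1, and at 27 to 40 in the WT libraries numbered 2. Dcn was low too, with 12 to 25 in KO and 40 to 93 in WT. The defining endothelial marker Pecam1 and the keratinocyte marker Krt5 were at or near the floor, as was the leukocyte marker Ptprc at 1 to 6. Other markers of those cell types stood above the floor, among them Cd14 at 43 to 79, Cdh1 at 8 to 38, Kdr at 6 to 25 and Tek at 3 to 27. The summed markers of endothelium were 14 to 49 (6 of 8 names in the table), of leukocytes 63 to 99 (6 of 9), of keratinocytes 36 to 77 (8 of 8) and of Schwann cells and melanocytes 74 to 141 (5 of 8). Libraries differed in how values ran with transcript length, from a log2 change of -0.17 per doubling of length in KO normoxia replicate 1 to 0.16 in KO normoxia replicate 2. In WT the slopes were -0.09 and -0.14 in hypoxia and 0.04 and 0.09 in normoxia. Collagen mRNAs are long, so these slopes stand beside every comparison that follows. Fewer cells of a kind and less RNA per cell cannot be told apart in such libraries.

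Testing was limited to the 26 of 43 chains with 10 or more normalised reads in 2 or more libraries. The other 17 fell short, 5 of them (Col4a4, Col6a5, Col6a6, Col9a2 and Col13a1) at the floor in all 8 libraries and none above 16 in any. Col15a1, a basement-membrane-associated chain, had the highest mean of the untested chains, with 8 and 16 in KO hypoxia, 7 and 6 in KO normoxia, 3 and 8 in WT hypoxia and 1 and 5 in WT normoxia (replicates 1 and 2, the order used for pairs of values throughout). Col17a1, a transmembrane chain, and Col9a1, a type IX chain, also each reached 10 in a single library. Col17a1 had 6 and 7 in KO hypoxia, 11 and 5 in KO normoxia, 6 and 3 in WT hypoxia and 3 and 2 in WT normoxia. Col9a1 had 1 and 2 in KO hypoxia, 1 and 2 in KO normoxia, 2 and 8 in WT hypoxia and 3 and 12 in WT normoxia. Apart from Col4a3 and Col4a4, named with the type IV chains, the untested chains are described no further.

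Per kilobase of transcript, the highest levels over the 8 libraries were those of Col1a2 (1679 normalised reads per kb on average), Col5a2 (1433), Col1a1 (1106) and Col12a1 (946). These are the chains of type I, the main fibril former of skin, a chain of type V, which starts and limits fibril growth, and that of type XII, a FACIT that lies on type I fibrils. Next came Col6a1 (662), Col4a1 (462), Col3a1 (416) and Col8a1 (383). Fibrillar chains made up 55.7% to 61.3% of the summed per-kb level of all members in every library. Type VI took 11.9% to 20.3%, FACIT chains 7.57% to 17.4% and type IV 8.24% to 12.95%. Altogether the members held 0.53% of all normalised reads in KO normoxia replicate 1 and 0.98% in WT normoxia replicate 2, the lowest and highest of the 8 libraries.

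**Figure D1:**
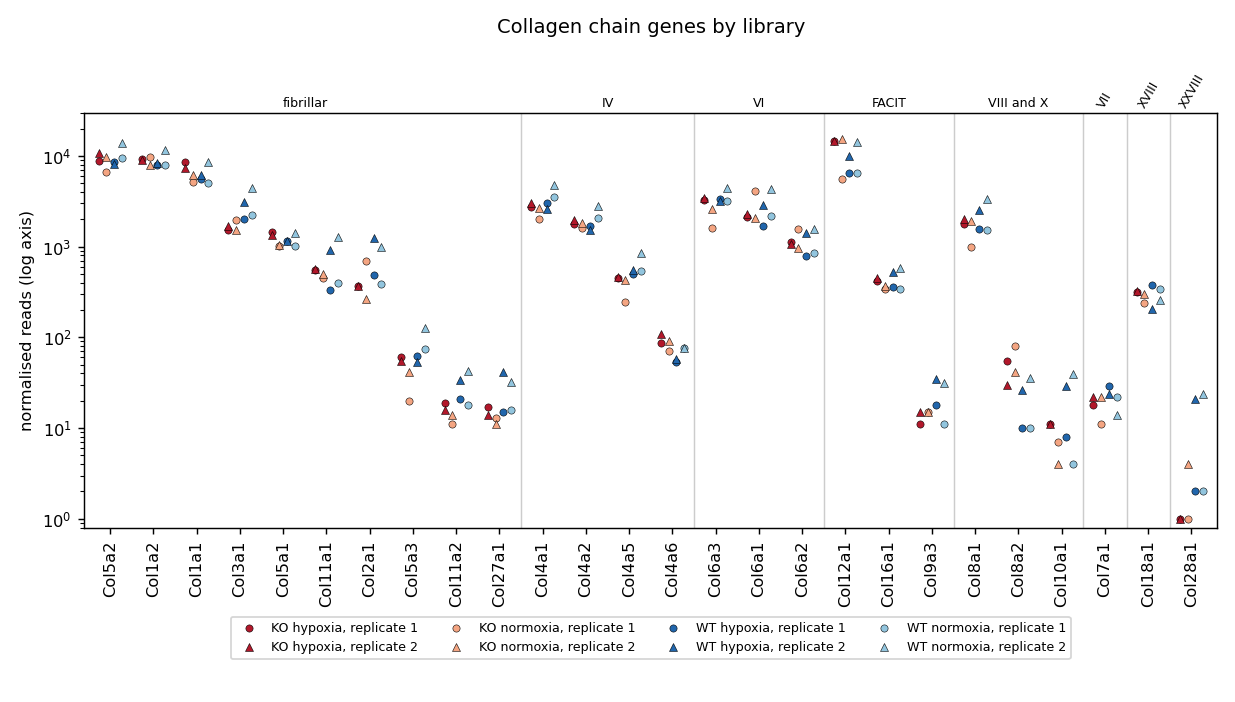
Normalised reads (log axis) of the 26 tested collagen chain genes in each library, grouped by family and within a family ordered by mean. Circles are replicate 1, triangles replicate 2, and colours give the group. Levels run from 15292 for Col12a1 in KO normoxia replicate 2 to the floor of 1 for Col28a1.

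Hypoxia was set against normoxia within each genotype to ask how collagen chain mRNAs differ in low oxygen in the cells called KO and in WT cells. No chain passed in either genotype. In KO, limma's moderated test with Benjamini-Hochberg adjustment called 0 of 26 chains, against 0.0578% of all 12107 tested features, and 2 chains had an unadjusted p under 0.05, against 3.2% of features. The smallest adjusted p of a chain was 0.916. In WT it called 0 of 26, against 0.107% of all features, and 1 chain had an unadjusted p under 0.05, against 6.33% of features. The smallest adjusted p there was 0.767. Over both genotypes together limma called 0 of 26 chains, against 0.363% of all features, and 0 had an unadjusted p under 0.05, against 5.29%. No chain had all 4 hypoxia libraries above or all 4 below the normoxia libraries, patterns shown by 2.06% and 1.65% of all features.

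The 2 responses leaned opposite ways. In KO, 19 of 26 chains had a positive log2 change and the median was 0.28, beside a median of 0.01 over all tested features. In WT, 21 of 26 had a negative change and the median was -0.19, beside -0.02 over all features, of which 52.1% were negative. Both KO hypoxia values of 12 chains lay above both KO normoxia values, and 0 chains were wholly lower, against 15.9% and 16.3% of all features. Without KO normoxia replicate 2 the chains wholly higher numbered 18 and those wholly lower 6, against 43.8% and 42.5% of features. With the length trend removed the KO count was 13 chains higher, against 19.4% of all features. In WT 1 chain lay wholly higher in hypoxia and 5 wholly lower, against 18.9% and 19.9% of all features, so the share of chains lower in WT was near that of all features. The WT median changed sign with the normoxia library left out: it was 0.22 without replicate 2 and -0.68 without replicate 1, and the chains wholly lower numbered 5 without replicate 2 and 21 without replicate 1, against 36.0% and 34.6% of all features. Those wholly higher numbered 12 without replicate 2 and 1 without replicate 1, against 33.6% and 31.6% of all features. With each library's length trend removed the WT median was -0.01. The KO median was 0.10 without KO normoxia replicate 1, 0.45 without KO normoxia replicate 2 and 0.23 with the length trend removed.

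**Figure D2:**
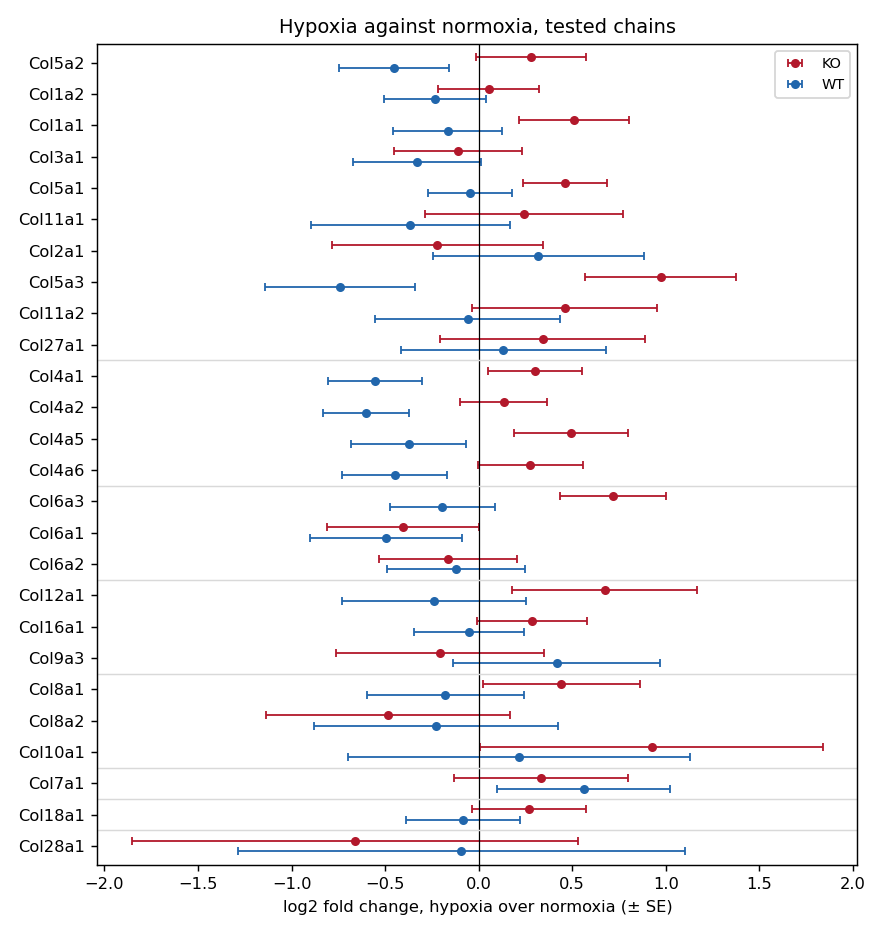
Log2 fold change of hypoxia over normoxia with its standard error for each tested chain, in KO (red) and WT (blue), from limma on 2 libraries against 2. Families are separated by lines. The 4 type IV chains lie right of 0 in KO and left of 0 in WT, and no chain passed the test in either genotype.

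Among fibrillar chains 8 of 10 had a positive change in KO (median 0.31) and 8 of 10 a negative one in WT (median -0.20). Col1a1, a chain of type I collagen, had 8590 and 7428 normalised reads in KO hypoxia, against 5157 and 6111 in KO normoxia. Its KO groups did not overlap (log2 change 0.51 ± 0.29 SE, limma adjusted p = 0.916). In WT it had 5497 and 6159 in hypoxia, against 4983 and 8554 in normoxia, and there the groups overlapped. Its partner Col1a2 had 9261 and 9048 in KO hypoxia, against 9812 and 7939 in KO normoxia, and 7932 and 8334 in WT hypoxia, against 7861 and 11636 in WT normoxia. Both of its comparisons overlapped, and Col1a2 stayed within 7861 to 11636 over all 8 libraries.

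Differences were larger for a type V chain. Col5a3, the least abundant of them, had 61 and 55 normalised reads in KO hypoxia, against 20 and 42 in KO normoxia. In WT it had 62 and 54 in hypoxia, against 74 and 128 in normoxia. Hypoxia lay wholly above normoxia in KO and wholly below it in WT. The log2 change was 0.97 ± 0.40 SE in KO (limma adjusted p = 0.916) and -0.74 ± 0.40 in WT (adjusted p = 0.803). The abundant Col5a2 had 8865 and 10722 in KO hypoxia, against 6641 and 9709 in KO normoxia, and 8492 and 8234 in WT hypoxia, against 9536 and 13736 in WT normoxia, where the groups did not overlap. Col5a1 had 1465 and 1355 in KO hypoxia, against 1005 and 1040 in KO normoxia, with no overlap, and its WT groups at 1141 and 1165 in hypoxia, against 1012 and 1397 in normoxia, overlapped.

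Col4a1 and Col4a2, the chains of the common basement-membrane network, start head to head on chromosome 8, and in the RefSeq annotation (GRCm38.p6) their starts lie 21 bases apart with the first transcribed bases overlapping. Those shared bases, chr8:11312805-11312826 on the plus strand, are shown because both chains are described together.
Col4a1 and Col4a2: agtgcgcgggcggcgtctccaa
Col4a1 had 2751 and 2992 normalised reads in KO hypoxia, against 2019 and 2678 in KO normoxia, and 3044 and 2604 in WT hypoxia, against 3555 and 4818 in WT normoxia. Hypoxia thus lay wholly above normoxia in KO and wholly below it in WT, with log2 changes of 0.30 ± 0.25 SE and -0.56 ± 0.25 (limma adjusted p = 0.916 and 0.785). Col4a2 had 1754 and 1985 in KO hypoxia, against 1589 and 1823 in KO normoxia, which overlap. Its WT values were 1676 and 1513 in hypoxia, against 2093 and 2790 in normoxia, without overlap (-0.60 ± 0.23, adjusted p = 0.767). It was the chain at an unadjusted p under 0.05 in WT.

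The other pair of the type IV family, Col4a5 and Col4a6, lies head to head on chromosome X with RefSeq starts 1343 bases apart. Col4a5 had 454 and 464 in KO hypoxia, against 245 and 433 in KO normoxia, and 497 and 551 in WT hypoxia, against 543 and 848 in WT normoxia. Col4a6 had 87 and 109 in KO hypoxia, against 70 and 92 in KO normoxia, and 53 and 58 in WT hypoxia, against 76 in both WT normoxia libraries. Hypoxia and normoxia did not overlap for Col4a5 in KO or for Col4a6 in WT. The remaining chains of this type, Col4a3 and Col4a4, known from kidney and other specialised basement membranes, were at 7 or less.

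Type VI chains differed among themselves. Col6a3, the long chain of the heterotrimer, had 3267 and 3416 normalised reads in KO hypoxia, against 1588 and 2596 in KO normoxia (log2 change 0.72 ± 0.28 SE, limma adjusted p = 0.916). Without KO normoxia replicate 2 its change was 1.07 with limma adjusted p = 0.0453, the only chain called under any of the settings tried, in a fit that called 758 features. In WT it had 3352 and 3199 in hypoxia, against 3157 and 4446 in normoxia. Col6a1 had 2132 and 2291 in KO hypoxia, against 4118 and 2076 in KO normoxia, and 1693 and 2856 in WT hypoxia, against 2201 and 4361 in WT normoxia. Per kilobase, its ratio to Col6a3 within a library was 6.39 in KO normoxia replicate 1 and between 1.24 and 2.42 in the other 7. Col6a2 had 1130 and 1073 in KO hypoxia, against 1560 and 976 in KO normoxia, and 794 and 1424 in WT hypoxia, against 847 and 1577 in WT normoxia. For Col6a1 and Col6a2 hypoxia overlapped normoxia in both genotypes.

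Col12a1, the most abundant FACIT chain, had 14684 and 14564 normalised reads in KO hypoxia, against 5506 and 15292 in KO normoxia. Its WT values were 6551 and 9936 in hypoxia, against 6407 and 14139 in normoxia. Both comparisons overlapped, and the low value of KO normoxia replicate 1 was the lowest of the 8. Col16a1 had 418 and 450 in KO hypoxia, against 343 and 369 in KO normoxia, and 357 and 522 in WT hypoxia, against 340 and 587 in WT normoxia. The KO values of Col16a1 did not overlap and its WT values did. Col8a1, a short-chain network collagen of vessel walls and the eye, had 1757 and 2016 in KO hypoxia, against 994 and 1933 in KO normoxia, and 1549 and 2556 in WT hypoxia, against 1515 and 3345 in WT normoxia. Col18a1, the precursor of endostatin, had 318 and 328 in KO hypoxia, against 239 and 300 in KO normoxia, and 380 and 207 in WT hypoxia, against 341 and 260 in WT normoxia. Hypoxia lay above normoxia for Col18a1 in KO, and the other comparisons of Col8a1 and Col18a1 overlapped. Col7a1, which forms the anchoring fibrils below the epidermis, was low, at 18 and 22 in KO hypoxia, against 11 and 22 in KO normoxia. In WT its 29 and 24 in hypoxia lay above the 22 and 14 of normoxia (log2 change 0.56 ± 0.46 SE, limma adjusted p = 0.871).

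The difference of the responses, KO minus WT, was then tested directly. By limma 0 of 26 chains passed, as did 0% of all features, and 4 chains had an unadjusted p under 0.05, against 3.14% of features. The smallest adjusted p of a chain was 0.857. The median difference over the chains was 0.51, beside 0.01 over all tested features. The 4 chains at an unadjusted p under 0.05 were Col5a3 (1.71 ± 0.57 SE), Col6a3 (0.91 ± 0.40), Col4a1 (0.86 ± 0.36) and Col4a2 (0.73 ± 0.33). Each was positive, with a rise in KO and a decrease in WT. For Col4a1 and Col4a2 the decrease in WT was the larger change. All 4 tested type IV chains had a positive difference, from 0.72 to 0.87. Only Col4a1 and Col5a3 had hypoxia wholly above normoxia in KO and wholly below it in WT, 2 of 26 chains against 2.02% of all features. The median difference was 0.05 when WT normoxia replicate 2 was left out, was 0.84 when replicate 1 was, and was 0.24 with the length trend removed.

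WT normoxia replicate 2 stood highest for the members as a whole. There 24 of 26 tested chains lay above their own mean over the 8 libraries, with a median log2 deviation of 0.64, against -0.20 in WT normoxia replicate 1. The other libraries had medians of -0.05 and 0.03 in KO hypoxia, -0.33 and -0.17 in KO normoxia, and -0.16 and 0.17 in WT hypoxia. Over all tested features the median deviation of every library was within 0.01 of 0. The lowest collagen median, in KO normoxia replicate 1, went with the most negative length slope, and the highest, in WT normoxia replicate 2, went with a slope of 0.09 that KO normoxia replicate 2 and KO hypoxia replicate 2 exceeded. The library medians were not computed with the length trend removed. Those given above with it removed are medians of the comparisons.

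**Figure D3:**
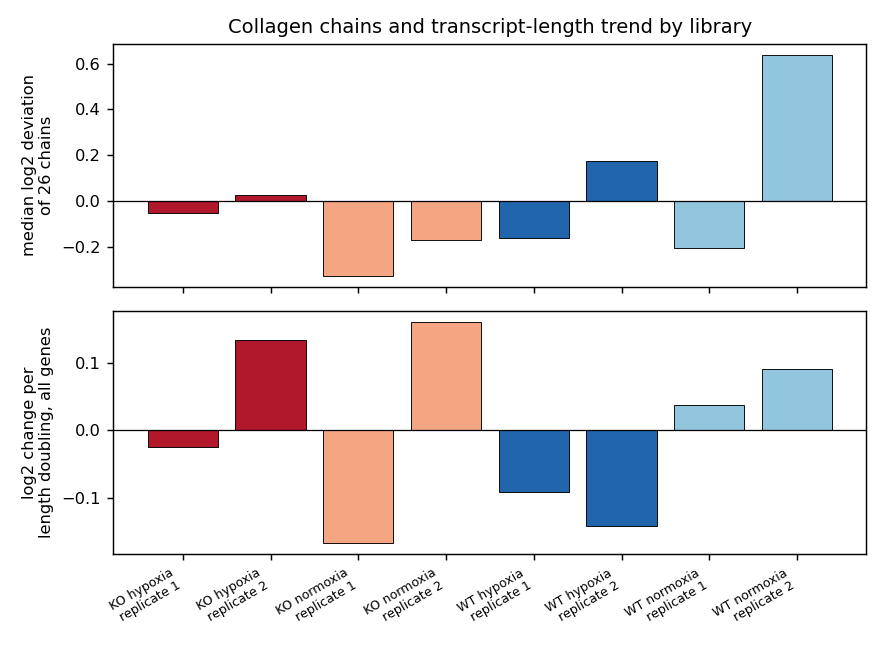
Upper panel: median over the 26 tested collagen chains of the log2 deviation from each chain's own mean over the 8 libraries. Lower panel: log2 change per doubling of transcript length over all tested genes with a length. The bar of WT normoxia replicate 2 reaches 0.64 in the upper panel, and KO normoxia replicate 1 is lowest in both panels.

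WT libraries numbered 2 stood above those numbered 1 at both oxygen levels. For 18 of 26 chains both lay above both WT libraries numbered 1, against 21.4% of all tested features, and for 1 chain, Col18a1, both lay below, against 22.2%. In 11 chains they lay above all other 6 libraries, against 8.28% of features. These 11 were Col2a1, Col3a1, Col4a5, Col8a1, Col9a3, Col10a1, Col11a1, Col11a2, Col16a1, Col27a1 and Col28a1. Col28a1 passed the filter on low values only through the WT libraries numbered 2, so its place in the 11 and in the 18 was set by that filter. In KO the matching counts were 5 above and 4 below, against 21.6% and 19.7% of features. The members were not chosen on this split, but the split was noticed in these values and carries no test.

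All 5 tested chains of the cartilage types II, IX, X and XI were among the 11. Col2a1, the fibril former of cartilage, had 1237 in WT hypoxia replicate 2 and 1000 in WT normoxia replicate 2, against 482 and 383 in the WT libraries numbered 1, and 267 to 695 in KO. Col11a1, its partner in cartilage fibrils, had 927 and 1274 in the WT libraries numbered 2, against 332 and 402 in those numbered 1, with 451 to 561 in KO. Col10a1, a marker of hypertrophic cartilage cells, had 29 and 39 against 8 and 4, with 4 to 11 in KO. Col28a1, a chain reported mainly around nerve cells, had 21 and 24 against 2 and 2, and was at the floor in 3 of 4 KO libraries. Col9a3 had 35 and 31 against 18 and 11, and shares 234 exon bases with Tcfl5 on the opposite strand, so some of its reads may be those of Tcfl5.

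Among chondrocyte markers, Lect1, Comp and Sox9 ran with these chains and the others did not clearly do so. Of 9 names 7 were in the table, and their summed value was 1759 and 1643 in the WT libraries numbered 2, against 503 and 491 in those numbered 1 and 471 to 646 in KO. Lect1, which codes for chondromodulin, had 1021 and 917 in the WT libraries numbered 2, against 133 and 177 in those numbered 1 and 59 to 113 in KO. Comp, the cartilage oligomeric matrix protein, had 144 and 146, against 22 and 25 and, in KO, 11 to 25. For Sox9, the master factor of cartilage, the values were 375 and 393, against 202 and 181 and, in KO, 270 to 316, and Lect1, Comp and Sox9 thus all stood highest in the WT libraries numbered 2. Acan, aggrecan, had 196 and 164, against 128 and 83, and reached 211 in KO. Hapln1, a cartilage link protein, had 16 and 11, against 11 and 7 and, in KO, 7 to 14. Matn3, a cartilage matrix protein, went the other way in normoxia, with 6 and 11, against 6 and 17 and, in KO, 1 to 5. The summed value is thus carried mostly by Lect1. Matn1, a defining cartilage matrix gene, was at the floor in all 8 libraries. The summed adipocyte markers (3 of 6 in the table) were 456 and 484 in the WT libraries numbered 2, against 173 and 251 in those numbered 1 and 179 to 225 in KO. Whether cells of another kind or state contribute to the collagen values of these libraries was not tested.

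**Figure D4:**
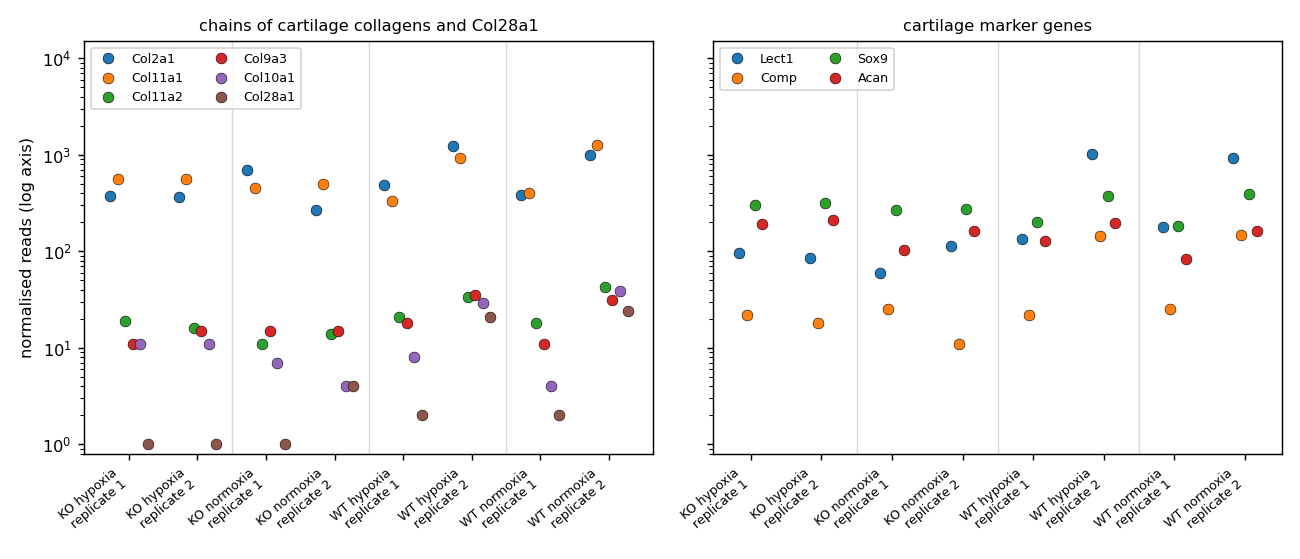
Normalised reads (log axis) by library of 5 cartilage collagen chains and Col28a1 (left) and of 4 cartilage marker genes (right). Points are shifted sideways by gene. Both WT libraries numbered 2 stand above the other 6 for every chain shown, and for Lect1, Comp and Sox9.

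KO was set against WT at each oxygen level to ask what differs between the genotypes apart from oxygen. These comparisons share libraries with the hypoxia comparisons, so their values stand side by side with those and add no independent evidence. By limma 0 of 26 chains and 0% of all features passed at either oxygen level. In hypoxia 1 chain had an unadjusted p under 0.05, against 7.52% of features, and in normoxia 7 had, against 3% of features. The smallest adjusted p of a chain was 0.641 in hypoxia and 1.0 in normoxia. In hypoxia the median log2 change, KO over WT, was 0.01, with 8 chains wholly higher in KO and 7 wholly lower, against 26.2% and 24.5% of all features. That hypoxia median was -0.26 without WT hypoxia replicate 1, when 12 chains were wholly higher and 14 wholly lower, against 42.4% and 43.1% of all features. It was 0.20 without WT hypoxia replicate 2, when the counts were 14 and 10, against 40.3% and 38.6%. With the length trend removed it was -0.12, with 4 chains wholly higher and 9 wholly lower, against 22.7% and 23.8%. In normoxia the median was -0.51, with 23 of 26 chains negative, 1 chain wholly higher in KO and 8 wholly lower, against 10% and 11% of all features. That normoxia median was 0.01 when WT normoxia replicate 2 was left out, -0.89 when WT replicate 1 was and -0.41 with the length trend removed. The chains wholly lower in KO numbered 9 and 21 under these omissions, against 23% and 27.6% of features. When a KO normoxia library was dropped instead, they numbered 10 (replicate 1 dropped, against 31.8% of features) and 16 (replicate 2 dropped, against 39.3%).

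**Figure D5:**
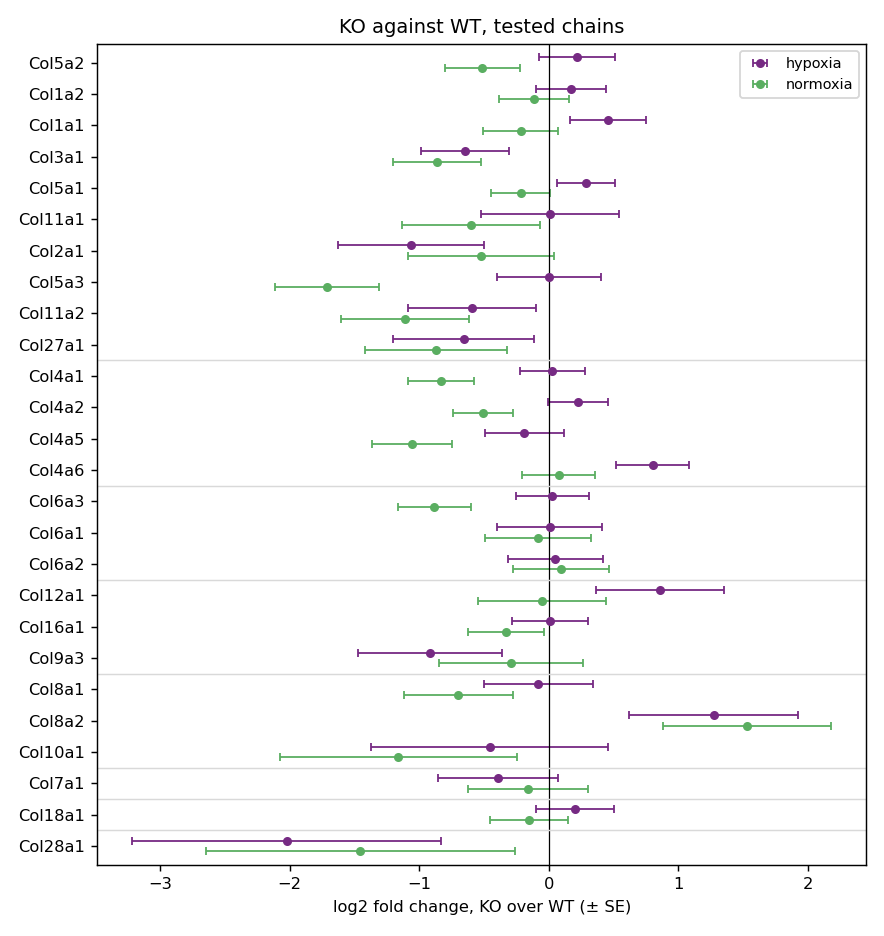
Log2 fold change of KO over WT with its standard error for each tested chain, in hypoxia (purple) and normoxia (green), from limma on 2 libraries against 2. In normoxia 23 of 26 chains lie left of 0, while Col8a2 lies right of 0 at both oxygen levels.

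In normoxia the chains at an unadjusted p under 0.05 were Col5a3 (log2 change -1.71 ± 0.40 SE), Col11a2 (-1.11 ± 0.49), Col4a5 (-1.06 ± 0.31), Col6a3 (-0.88 ± 0.28), Col3a1 (-0.86 ± 0.34) and Col4a1 (-0.83 ± 0.25), which were lower in KO, and Col8a2 (1.53 ± 0.65), which was higher. In hypoxia it was Col4a6 alone (0.80 ± 0.28), with 87 and 109 normalised reads in KO against 53 and 58 in WT. With both oxygen levels together 0 of 26 chains passed by limma, against 0.0248% of all features, and 6 had an unadjusted p under 0.05, against 6.07%.

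Col3a1 and Col4a5 were the chains whose 4 KO libraries all lay below all 4 WT libraries, 2 of 26 chains against 1.7% of all features, while 0 were wholly higher, against 1.95%. Col3a1, the type III chain of elastic skin and vessel tissue, had 1520 and 1689 in KO hypoxia and 1986 and 1509 in KO normoxia, against 2012 and 3127 in WT hypoxia and 2242 and 4428 in WT normoxia. Its exons hold an annotated miRNA gene, Gm47302, of 141 bases. Its highest KO value and lowest WT value, 1986 and 2012, nearly met. Its log2 change over both oxygen levels was -0.75 ± 0.24 SE (limma adjusted p = 0.645). For Col4a5 the highest KO value and lowest WT value were 464 and 497. Both chains were among the 11 with the WT libraries numbered 2 above all others. Col8a2, the second chain of type VIII, had 55 and 30 in KO hypoxia and 80 and 41 in KO normoxia, against 10 and 26 in WT hypoxia and 10 and 36 in WT normoxia. Here the genotypes overlapped over the 8 libraries, though not within either oxygen level, and the change over both levels was 1.40 ± 0.46 SE (limma adjusted p = 0.669). Summed markers of smooth muscle and pericytes (7 of 7 in the table, mostly Acta2) were 35309 to 42410 in KO and 49452 to 65304 in WT, also without overlap. The pericyte marker Cspg4 in that list went the other way, with 1102 to 1773 in KO and 771 to 1040 in WT. The part of these markers in the collagen values was not tested.

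Ratios of chosen chain pairs that share a trimer or a head-to-head start were compared between the genotypes. A ratio within a library is free of library scaling. The ratios are of normalised reads not divided by length, so only their difference between genotypes is read. Of 7 pairs, 3 did not overlap between the genotypes. Other pairs that can share a trimer, among them Col5a1 with Col5a3 and Col6a2 with Col6a3, were not compared. The count and the adjusted p below depend on that choice of pairs. The share over other gene pairs was not computed, so this count cannot be judged against a background. Col4a1 over Col4a2 was 1.45 ± 0.13 in KO and 1.74 ± 0.05 in WT (SD, n = 4 each), and Col4a5 over Col4a6 was 4.42 ± 0.73 in KO and 9.29 ± 1.65 in WT (SD, n = 4 each). Col8a1 over Col8a2 was 39.7 ± 23.2 in KO and 124 ± 33.4 in WT (SD, n = 4 each). Col8a2 was at 10 in both WT libraries numbered 1, so the ratio rests on few reads there. For each of the 3 the two-sided exact permutation p was 0.0286, the smallest that 4 against 4 can give, and 0.0667 adjusted over the 7 pairs by Benjamini and Hochberg, so none passed. The 4 libraries of a genotype pool both oxygen levels, which the permutation ignores. Deviations of same-numbered WT libraries correlated at 0.57 over all tested features. The 4 may therefore not be independent, and these p-values and SDs may overstate the replication. Col1a1 over Col1a2 was 0.76 ± 0.17 in KO and 0.70 ± 0.05 in WT (SD, n = 4 each, exact permutation p = 0.657). The other 3 pairs, of types V and VI, had exact permutation p-values from 0.343 to 0.629.

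Promoter windows from 250 bases before to 50 after the RefSeq start (GRCm38.p6) were at hand for 35 of the 43 members and 21 of the 26 tested. Both strands were searched for the HIF core motif (ACGTG or GCGTG), the CCAAT box (CCAAT) and the TATA box (TATAAA), none of which contains another. The HIF core was in 9 of 21 tested chains' windows (42.9%), against 43.8% of 27025 windows of the same length. The CCAAT box was in 9 of 21 (42.9%), against 37.9%, and the TATA box in 3 of 21 (14.3%), against 14.2%. Among the tested chains Col5a3 had the largest log2 change in hypoxia within KO and within WT. It also had the largest of KO against WT in normoxia, but not in hypoxia. Col3a1 was lower in every KO library than in every WT library, and Col10a1 had the spread between WT libraries. The 250 bases before the start are shown for Col5a3, Col3a1 and Col10a1, with matches in capitals. They lie at chr9:20815068-20815317 on the minus strand, chr1:45311288-45311537 on the plus strand and chr10:34389731-34389980 on the plus strand.
Col5a3: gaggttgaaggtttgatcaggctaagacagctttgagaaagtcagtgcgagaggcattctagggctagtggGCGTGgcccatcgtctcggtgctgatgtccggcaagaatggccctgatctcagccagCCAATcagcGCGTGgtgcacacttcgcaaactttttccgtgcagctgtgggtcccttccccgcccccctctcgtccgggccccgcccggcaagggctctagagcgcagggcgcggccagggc
Col3a1: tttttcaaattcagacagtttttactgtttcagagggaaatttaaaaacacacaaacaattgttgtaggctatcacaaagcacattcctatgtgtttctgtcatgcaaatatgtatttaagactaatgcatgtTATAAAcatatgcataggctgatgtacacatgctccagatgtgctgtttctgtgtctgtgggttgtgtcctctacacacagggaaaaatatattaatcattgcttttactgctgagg
Col10a1: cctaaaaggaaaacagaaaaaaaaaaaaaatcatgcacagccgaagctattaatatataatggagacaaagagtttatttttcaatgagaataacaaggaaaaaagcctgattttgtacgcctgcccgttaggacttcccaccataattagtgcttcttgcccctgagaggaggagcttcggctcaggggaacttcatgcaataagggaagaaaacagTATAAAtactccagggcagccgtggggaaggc
Col5a3 held GCGTG at both of its HIF core matches and 1 CCAAT box between them. Col3a1 held a TATA box well before its start, and that of Col10a1 lies nearer to the start. The HIF core match counted for Col10a1 lies after its start, outside the stretch shown. A match is a run of letters and shows no binding.

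Genes that fold, process, bind or degrade collagen were counted from lists. Over both genotypes 4 of 20 tested genes of collagen folding and hydroxylation rose in hypoxia and 0 fell, by limma adjusted over all features, of which 0.363% passed. These were the prolyl hydroxylase subunits P4ha1 (log2 change 1.49 ± 0.16 SE, adjusted p = 0.00419) and P4ha2 (1.38 ± 0.19, adjusted p = 0.0166) and the lysyl hydroxylases Plod2 (1.36 ± 0.19, adjusted p = 0.0153) and Plod1 (1.10 ± 0.17, adjusted p = 0.0228). P4ha1, the first of them, had 6020 and 6663 normalised reads in KO hypoxia, against 1985 and 2406 in KO normoxia, and 6847 and 8454 in WT hypoxia, against 2752 and 2841 in WT normoxia, so every hypoxia library lay above every normoxia library. The median of that list was 0.04, beside 0.00 over all features. Within KO and within WT 0 of the 20 passed. Of 11 tested genes of propeptide processing and crosslinking, 8 tested collagen receptors and 4 tested collagenases and cathepsins, 0 passed in any of the 7 comparisons, by limma. Loxl2, a lysyl oxidase, had 498 and 588 normalised reads in KO hypoxia, against 137 and 181 in KO normoxia, and 532 and 433 in WT hypoxia, against 285 and 484 in WT normoxia (difference of responses 1.41 ± 0.41 SE, limma adjusted p = 0.857). Serpinh1, the collagen chaperone, had 10294 and 10488 in KO hypoxia, against 13923 and 10313 in KO normoxia, and 14634 and 15233 in WT hypoxia, against 15823 and 15699 in WT normoxia.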

How the data were processed

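Total RNA (miRNeasy) was made into SOLiD libraries with an NEB small RNA kit, per the labels' protocols. The deposited values are a score: the authors' normalised read counts, rounded to whole numbers. Aligner, build, strand use and normalisation method: not given in the sources used here. The analysis used log2(value + 1), on which changes of low genes appear too small. Genes at 10 or more in 2 or more of 8 libraries (12107) were fitted as 4 groups with limma 3.58.1 in R 4.3.3, with a mean-variance trend and 10.2 moderated degrees of freedom. The Benjamini-Hochberg adjustment ran over all of them, with a threshold of 0.05. The fit was run on simulated reads with a single dispersion, independent libraries and no length trend. That run therefore does not check how the fit handles the library differences seen here. An exact test of 2 libraries against 2 cannot go below 0.333. Lengths are of the transcript with the longest coding sequence (GENCODE M21, GRCm38), found for all 43 members. The members, classes, pathway and marker lists and the naming rule (abundant chains, chains past a test, the 3 largest changes each way, trimer partners) were chosen with earlier results of these data known. Read depth was estimated from the spacing of low values. The alternatives varied the pseudocount, filter, scaling, trend, replicate block, length correction and libraries kept. Overlapping or antisense genes may share reads.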

Additional observations from a re-analysis of the deposited data

How the results depend on the processing

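Under the 18 alternatives run for each count and median (14 to 18 for a single chain, since some settings left a low chain untested), no collagen chain passed by limma except Col6a3 in KO hypoxia against normoxia when KO normoxia replicate 2 was left out, so chains called there ranged from 0 to 1. Without a filter on low values the features called numbered 28 for hypoxia in WT, 19 and 14 for KO against WT in normoxia and hypoxia, 29 for the difference of responses and 30 for KO against WT over both levels. For the last, a minimum of 50 gave 0, limma without the trend 0 and removal of the length trend 6. Limma without the trend gave 21 for hypoxia over both genotypes. In KO hypoxia against normoxia, removal of the length trend gave 12. The labels' replicate numbers are shared between groups. A fit with the replicate number as a block gave 11 there and changed no call of a chain. Same-numbered deviations correlated at 0.57 between the WT groups, 0.23 between the KO groups and -0.11 to 0.11 otherwise, and the labels do not say that a number marks a shared culture or day, so with 2 numbers pairing was neither assumed nor settled. Without both WT hypoxia replicate 2 and KO normoxia replicate 1 the counts were 6 for hypoxia in WT, 25 over both genotypes and 0 for KO against WT over both levels.

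With 1 library left out at a time, features called ranged from 1 to 20 for hypoxia in WT, 4 to 758 in KO, 12 to 50 over both genotypes and were 0 throughout for KO against WT over both levels. A lone library is then taken to vary like the other groups. The chain median ranged from -0.68 to 0.22 for hypoxia in WT, -0.89 to 0.015 for KO against WT in normoxia and 0.048 to 0.84 for the difference of responses, with both ends set by WT normoxia replicates. Over all tested chains, the omission of 1 library reversed up to 12 chains for hypoxia in WT, 7 in KO, 10 for KO against WT in normoxia, 7 in hypoxia, 8 for the difference, 11 for hypoxia over both genotypes and 4 for KO against WT over both levels. Of the chains with the 3 largest changes each way in a comparison, those that reversed had these log2 ranges. For hypoxia in WT they were Col2a1 (-0.37 to 1.01) and Col9a3 (-0.29 to 1.12), and in KO Col6a1 (-0.90 to 0.090). For KO against WT in normoxia they were Col10a1 (-2.66 to 0.34), Col4a6 (-0.12 to 0.27) and Col6a2 (-0.35 to 0.54). For the difference they were Col9a3 (-1.33 to 0.084), Col28a1 (-2.01 to 0.96) and Col2a1 (-1.23 to 0.83 with the pair of omissions included). For hypoxia over both genotypes they were Col28a1 (-1.14 to 0.34), Col8a2 (-0.79 to 0.081) and Col10a1 (-0.18 to 1.32). The pair of omissions also reversed Col2a1 (-0.36) and Col9a3 (-0.045) for hypoxia in WT, Col6a1 (0.090) in KO and Col6a2 (-0.24) for KO against WT in normoxia. Causes were not tested. Depth limits the chains near 10 normalised reads, which rest on few reads.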

Other observations

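Genes outside the collagens also parted the WT libraries by number, and were picked here after their values were seen. Lum, lumican, a proteoglycan of collagen fibrils, had 36 in WT hypoxia replicate 2 and 27 in WT normoxia replicate 2, against 6 and 4 in the WT libraries numbered 1 and 1 to 4 in KO. Fap, a protease of activated fibroblasts, had 40 and 38 in the WT libraries numbered 2, against 9 and 7 in those numbered 1 and 4 to 7 in KO. Itga1, a collagen-binding integrin, had 590 and 690, against 203 and 138 and, in KO, 112 to 234. Fabp4, an adipocyte gene, had 94 and 46, against 4 and 4 and, in KO, 4 to 13. S100b, from the list of Schwann cells and melanocytes, had 86 and 39, against 12 and 13 and, in KO, 7 to 22. Tek, from the endothelial list, had 27 and 15, against 4 and 3 and, in KO, 3 to 9. Mitf, Pmel and Kdr of the same lists did not stand above every other library there. Acta2, the actin of contractile fibroblasts, did not follow this split, with 50327 and 58594 in the WT libraries numbered 2, against 53607 and 44897 in those numbered 1.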
